A study of Mus musculus with 8 samples.

Results

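Chromatin accessibility was examined around 10 genes that act at the cell surface and outside the cell in activin and Nodal signalling: the type I receptors Acvr1b, Acvr1c and Tgfbr1, the type II receptors Acvr2a, Acvr2b and Tgfbr2, the proprotein convertases Furin and Pcsk6, and the ligands Inhba and Gdf3. A peak was counted in the window of a gene when its centre lay inside the GRCm38 span of the gene or within 50 kb of it. There were 162 such peaks among 134407 in the whole table. Of these, 74 lay inside one of the 10 genes (49) or were nearer to it than to any other protein-coding gene (25), and these are called the genes' own peaks. The other 88 were nearer to a neighbouring gene and are described under that gene's name. No measured value was used to pick the genes or the windows, although the genes were chosen with earlier results of these data known.

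The cells were wild-type E14 mouse embryonic stem cells grown on gelatin in serum and LIF. Control cells stayed in that medium, and paused cells had INK128, which blocks the mTOR kinase, at 200 nM for 24 h. ATAC-seq, which marks open chromatin by where the Tn5 enzyme can insert adapters, was run on 4 control and 4 paused libraries of 50000 live cells each. The labels do not say whether the 4 libraries of a group came from separate cultures, so that p-values measure the spread between these libraries, which may be technical. A value is the number of reads in a peak, all peaks being equally wide, divided by 1 factor per library.

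Reads in peaks ranged from 4434037 to 21161767 per library, and the deepest library, control replicate 1, had 91 reads in its median peak against 18 to 29 in the other 7. As a check of the cell type, peaks within 1 kb of a gene end were counted, each only for the gene with the nearest end. By this count 6 of 9 embryonic stem cell genes had a peak. The summed value per gene was 128 to 140 in control and 149 to 167 in paused libraries. Pou5f1, Dppa5a and Tdgf1 had none by this count, which leaves out peaks nearer to the end of another gene. The same count was 4 of 6 for fibroblast genes (66.1 to 81.1 in control, 77.5 to 87.5 in paused), 2 of 4 for blood, 2 of 6 for endoderm, 3 of 4 for trophoblast and 3 of 4 for neural genes. An open gene end is not the same as expression, and the part of such cells in the results was not tested.

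As background, activins and Nodal are ligands of the transforming growth factor beta family. They bind type II receptor kinases (Acvr2a and Acvr2b), which activate type I receptor kinases (Acvr1b and Acvr1c), which in turn phosphorylate the transcription factors Smad2 and Smad3; Tgfbr2 and Tgfbr1 are the type II and type I receptors of the TGF-beta ligands and feed the same Smads. Nodal is made as a precursor that furin and Pcsk6 (also called PACE4) can cleave into its active form. In the mouse embryo this pathway maintains the epiblast and patterns the germ layers, and embryonic stem cells keep it active.

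RefSeq promoter stretches (build GRCm38.p6) were matched for 9 of the 10 genes, all but Gdf3. The 250 bases before the annotated start are shown for Pcsk6 and Acvr2a, the 2 genes whose start site peak was called higher in paused cells, and for Tgfbr1, whose start site peak had a log2 change close to 0. They are written 5′ to 3′ on the strand of the gene, with matches to CAGAC (the core of Smad binding elements) and to CCACACCC or CCCCGCCC (Klf and Sp type boxes), on either strand, in capitals.
Pcsk6, plus strand, chr7:65861886-65862135: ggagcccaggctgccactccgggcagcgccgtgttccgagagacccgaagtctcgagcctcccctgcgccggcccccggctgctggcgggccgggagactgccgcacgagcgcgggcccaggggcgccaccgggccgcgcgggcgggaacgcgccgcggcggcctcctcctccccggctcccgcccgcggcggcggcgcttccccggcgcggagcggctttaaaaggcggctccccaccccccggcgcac
Acvr2a, plus strand, chr2:48813859-48814108: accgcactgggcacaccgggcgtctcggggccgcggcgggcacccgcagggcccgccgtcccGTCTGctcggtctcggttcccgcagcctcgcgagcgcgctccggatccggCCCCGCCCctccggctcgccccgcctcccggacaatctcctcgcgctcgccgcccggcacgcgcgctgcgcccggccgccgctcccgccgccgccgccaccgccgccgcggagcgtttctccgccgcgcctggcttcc
Tgfbr1, plus strand, chr4:47352972-47353221: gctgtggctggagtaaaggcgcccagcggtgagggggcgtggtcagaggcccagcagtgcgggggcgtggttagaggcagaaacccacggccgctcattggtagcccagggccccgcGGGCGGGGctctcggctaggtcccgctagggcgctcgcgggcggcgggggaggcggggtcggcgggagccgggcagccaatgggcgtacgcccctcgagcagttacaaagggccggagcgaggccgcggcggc

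All 3 stretches are rich in CpG: there are 40 CpG in that of Pcsk6, 49 in that of Acvr2a and 29 in that of Tgfbr1, against a median of 6 over 32851 RefSeq stretches of the same kind. The start site peak covers 177, 166 and 169 of their 250 bases. The stretch of Acvr2a holds 1 match to CAGAC and 1 to CCCCGCCC, that of Tgfbr1 holds 1 to CCCCGCCC, and that of Pcsk6 holds neither. Over all 32841 stretches of full length without unknown bases, 42.2% hold CAGAC and 18.6% one of the Klf boxes. Matches to the E-box CACGTG (6.02% of all stretches) were found for Acvr1b only. None of the 9 genes had a match to the longer Smad palindrome GTCTAGAC (0.167% of all stretches), to the Foxh1 motifs AATCCACA or AATACACA (1.61%), to the Oct motif ATGCAAAT (1.60%), Sox CATTGTT (3.29%), Esrrb TCAAGGTCA (0.387%), Foxo TGTTTAC (3.17%), Tead CATTCC (12.6%) or AP-1 TGACTCA or TGAGTCA (4.46%), which says only that these letters are not in these windows.

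In paused cells 4 own peaks gained accessibility in every fit that tested them: 2 upstream of Pcsk6, 1 upstream of Acvr1b and 1 far upstream of Tgfbr2. The share of all peaks that were called in every fit was not counted, so that these 4 are a description. The fits also reuse the same 8 libraries. Of the 74 own peaks, 73 had a mean value of at least 10 and were tested, and 8 were called higher and 1 lower (limma-trend on log2(value + 1), Benjamini-Hochberg adjusted p under 0.05 over all 127402 tested peaks). Over all tested peaks 11.0% were called higher and 2.91% lower, so that the genes' own peaks, with 11.0% and 1.37%, were called about as often as peaks in general (13.9% called in all). A log2 change of at least 1 was called higher at 2 own peaks (1.43% of all tested peaks) and lower at 1 (0.923%). More opening per cell and more cells with the site open cannot be told apart in such bulk libraries. The median log2 change was 0.12 for the own peaks and 0.10 for all tested peaks, and changes are to be read against that general shift. The shift was larger among strong peaks. With only mean values of at least 50 tested, the median of all peaks was 0.18, and 10159 of 45273 were called higher and 751 lower. Of the own peaks in that fit, 6 of 22 were called higher and 0 lower. Counting the whole windows, 15 of 158 tested peaks were called higher and 2 lower. The paused values lay all above the control values at 12 of the 73 own peaks (13.0% of all tested peaks) and all below them at 3 (4.36%). With TMM rescaling of the recovered reads, 5 own peaks were called higher and 2 lower, against 5.77% and 4.28% of all peaks. After loess correction on peak strength the counts were 4 and 1 (5.10% and 3.50% of all peaks), in edgeR with TMM 6 and 5 (7.13% and 5.54%) and in DESeq2 5 and 0 (3.06% and 1.49%).

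**Figure D1:**
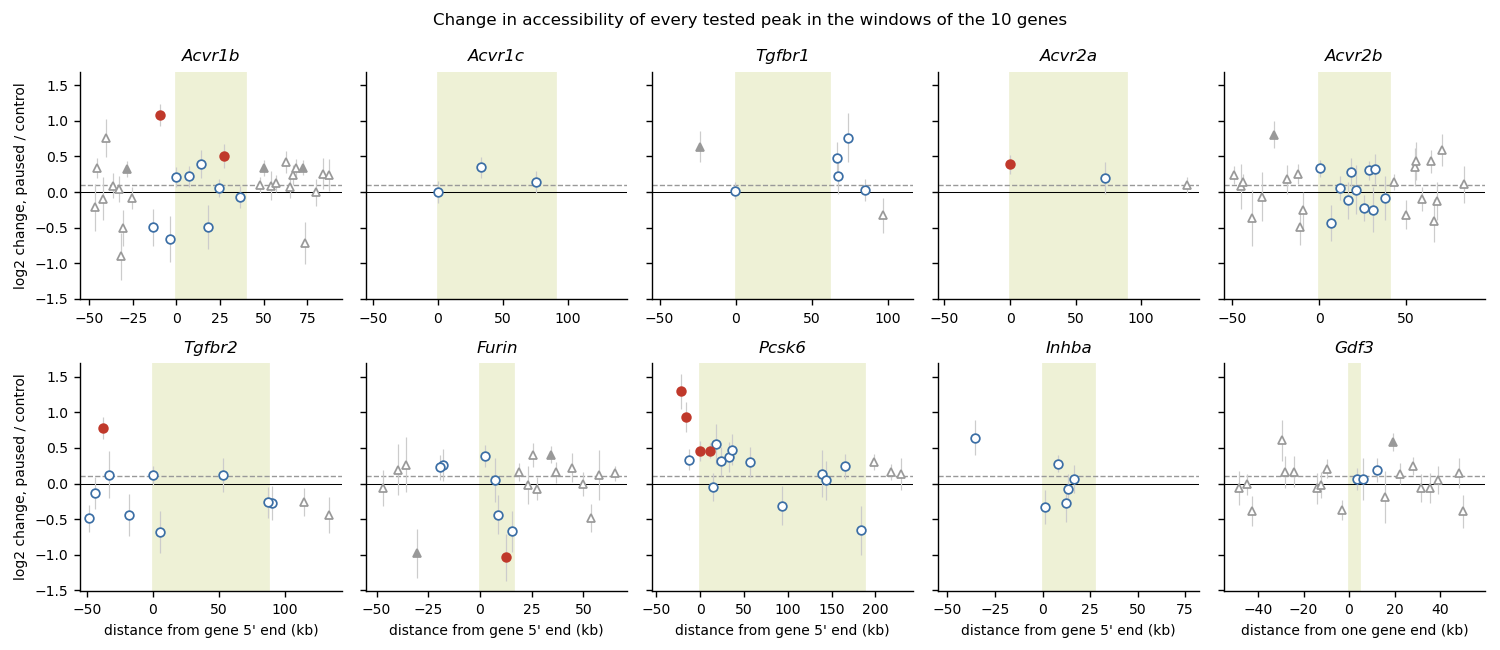
Log2 change in accessibility (paused over control, log2(value + 1) scale, with standard error) of each of the 158 tested peaks, by distance in kb from the 5′ end of the gene (for Gdf3, from its lower-numbered end); shaded, the gene; circles, own peaks; triangles, peaks nearer to another gene; filled symbols, called peaks; dashed line, the median of all tested peaks (0.10). The 8 own peaks called higher lie at Pcsk6 (4), Acvr1b (2), Acvr2a (1) and Tgfbr2 (1), and the 1 called lower inside Furin.

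The authors' deposited table lists an FDR under 0.05 with a higher value in paused cells for 7 of the 74 own peaks and with a lower value for 0, against 9.19% and 1.80% of all peaks in that table. It rests on the same libraries and is not independent of the counts above.

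Among the type I receptors, the clearest rise was upstream of Acvr1b, the gene of the main activin and Nodal type I receptor. The peak 9642 bp before its start site (chromosome 15, 101164330 to 101164530) had values of 48.4, 51.4, 44.0 and 35.3 in the control libraries and 87.7, 93.1, 83.8 and 119.5 in the paused libraries. Every paused library was above every control library. The means were 44.8 ± 7.01 and 96.0 ± 16.1 (SD, n = 4), a log2 change of 1.08 (SE 0.16, adjusted p = 1.22e-05), and the peak was called under all 17 alternatives.

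The neighbouring peaks did not pass the test. Those on either side, 13314 bp and 3401 bp before the start, had log2 changes of -0.49 (adjusted p = 0.204) and -0.66 (adjusted p = 0.170), with mean values of 24.1 and 15.5. The Acvr1b start site peak (chromosome 15, 101173818 to 101174018) had 106, 158, 91.4 and 95.5 in control and 128, 126, 141 and 116 in paused libraries. These groups overlapped, because control replicate 2 was the highest of the 8 libraries, and the log2 change of 0.21 (SE 0.14, adjusted p = 0.330) did not pass. A second called peak, 27007 bp into the gene (chromosome 15, 101200979 to 101201179), had means of 38.8 ± 4.69 in control and 55.3 ± 4.13 in paused libraries (SD, n = 4; log2 change 0.51, SE 0.17, adjusted p = 0.0412). It was named after its values were seen, and kept its call under 5 of 16 alternatives. The strongest own peak, 24351 bp into the gene (chromosome 15, 101198323 to 101198523), was level at 136 ± 20.1 and 142 ± 17.4 (SD, n = 4; log2 change 0.06, 95% interval -0.20 to 0.32).

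Acvr1c, the other activin and Nodal type I receptor, had 3 own peaks, and none passed the test. Its annotation holds 2 start sites with a peak each. At the outer start the peak (chromosome 2, 58357574 to 58357774) had 74.3, 81.2, 84.7 and 61.7 in control and 75.0, 63.1, 71.4 and 93.7 in paused libraries, with overlap of the groups, although paused replicate 4 was above every control library, and a log2 change of 0.00 (SE 0.15, 95% interval -0.30 to 0.31). At the inner start (chromosome 2, 58324695 to 58324895) the control libraries had 62.2, 59.7, 62.7 and 63.2 and the paused libraries 78.4, 93.1, 66.7 and 79.7. Here the groups did not overlap, and the log2 change was 0.34 (SE 0.15, adjusted p = 0.111). The difference between the 2 start sites was not tested. The stretch before the outer start holds 32 CpG and that before the inner start 2.

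Tgfbr1 encodes the type I receptor of TGF-beta itself. Its start site peak (chromosome 4, 47352940 to 47353140) had 150.0, 195, 188 and 173 in control and 182, 174, 164 and 193 in paused libraries, and the 4 paused values lay within the range of the control values. The log2 change was 0.02 (SE 0.12, 95% interval -0.22 to 0.26), so that a change in this peak beyond that interval was not seen at this precision. The other 4 own peaks all lie beyond the 3′ end of the gene, and the one of smallest p, 11782 bp beyond the gene (chromosome 4, 47426608 to 47426808), had a mean of 9.80 ± 5.50 in control and 15.9 ± 1.41 in paused libraries (SD, n = 4; log2 change 0.77, SE 0.35, adjusted p = 0.136). That peak rested on 3 to 27 reads per library.

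Acvr2a and Acvr2b encode the type II receptors that bind activins and Nodal. Acvr2a had only 2 own peaks, and its start site peak (chromosome 2, 48813824 to 48814024) was called higher: 109.9, 186, 144 and 121 in control against 216, 162, 174 and 172 in paused libraries. The groups overlapped, since control replicate 2 was above 3 of the 4 paused libraries. The means were 140 ± 33.9 and 181 ± 23.7 (SD, n = 4; log2 change 0.39, SE 0.14, adjusted p = 0.0479), and the call was kept under 5 of 17 alternatives. It was lost with TMM rescaling (0.28, adjusted p = 0.191) and in fits without control replicate 1, 3 or 4 or without any 1 of the paused libraries.

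The Acvr2b start site peak (chromosome 9, 119401821 to 119402021) had 153, 160.0, 152 and 147 in control and 182, 166, 236 and 196 in paused libraries. All paused values were above all control values, and the log2 change of 0.33 (SE 0.12, adjusted p = 0.0541) did not pass. The peak was called when only means of 50 or more were tested (adjusted p = 0.0339), in edgeR with the deposited factors (adjusted p = 0.0375) and without paused replicate 2 (adjusted p = 0.0342), and not with TMM rescaling (adjusted p = 0.217). The authors' deposited table lists it with an FDR of 0.0427. The other 10 own peaks of Acvr2b lie inside the gene, and all 11 had log2 changes between -0.43 and 0.33, with 6 above 0 and none called; at an unadjusted p under 0.05 there were 2 higher and 0 lower.

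Tgfbr2, the type II receptor of TGF-beta, had 10 own peaks, of which 1 was called higher and 0 lower. The peak 38061 bp before its start site (chromosome 9, 116213324 to 116213524) rose, with values of 64.3, 45.4, 61.0 and 51.4 in control and 70.4, 103, 119 and 94.9 in paused libraries. The groups did not overlap, and paused replicate 1 came closest to the controls. The means were 55.5 ± 8.68 and 96.8 ± 20.4 (SD, n = 4; log2 change 0.78, SE 0.16, adjusted p = 0.000845), called under all 17 alternatives. In contrast, the median log2 change of the 10 own peaks was -0.20, and 6 of them were below 0, though none of these was called. The start site peak (chromosome 9, 116175127 to 116175327) was at 126 ± 14.9 and 137 ± 22.3 (SD, n = 4; log2 change 0.11, SE 0.13, adjusted p = 0.603). The outermost own peak, 48194 bp before the gene (chromosome 9, 116223457 to 116223657), had a log2 change of -0.49 (adjusted p = 0.0809) and was singled out after its values were seen.

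Of the convertases, Pcsk6 had the most own peaks of the 10 genes, 17. Where 11.0% of all tested peaks were called higher, it had the most called own peaks of the 10 genes, 4 of 16 tested, all higher. The weakest of these in control cells lies 22214 bp before the start site (chromosome 7, 65839822 to 65840022): 13.5, 25.1, 13.6 and 10.3 in control against 42.7, 34.7, 41.9 and 32.8 in paused libraries. All paused values were above all control values. The means were 15.6 ± 6.50 and 38.0 ± 5.00 (SD, n = 4; log2 change 1.30, SE 0.25, adjusted p = 0.000429), the largest log2 change among the 158 tested peaks of the windows, and the peak was called under all 16 alternatives that tested it.

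A neighbouring peak moved with it. At 16760 bp before the start (chromosome 7, 65845276 to 65845476) the values were 27.7, 28.7, 30.5 and 16.2 in control and 39.2, 55.2, 46.6 and 56.2 in paused libraries (log2 change 0.94, SE 0.21, adjusted p = 0.00204, named after its values were seen). This peak too was called under all 16 alternatives that tested it, and its groups did not overlap. Another upstream peak, 12827 bp before the start, had a log2 change of 0.34 (adjusted p = 0.116) and was not called.

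**Figure D2:**
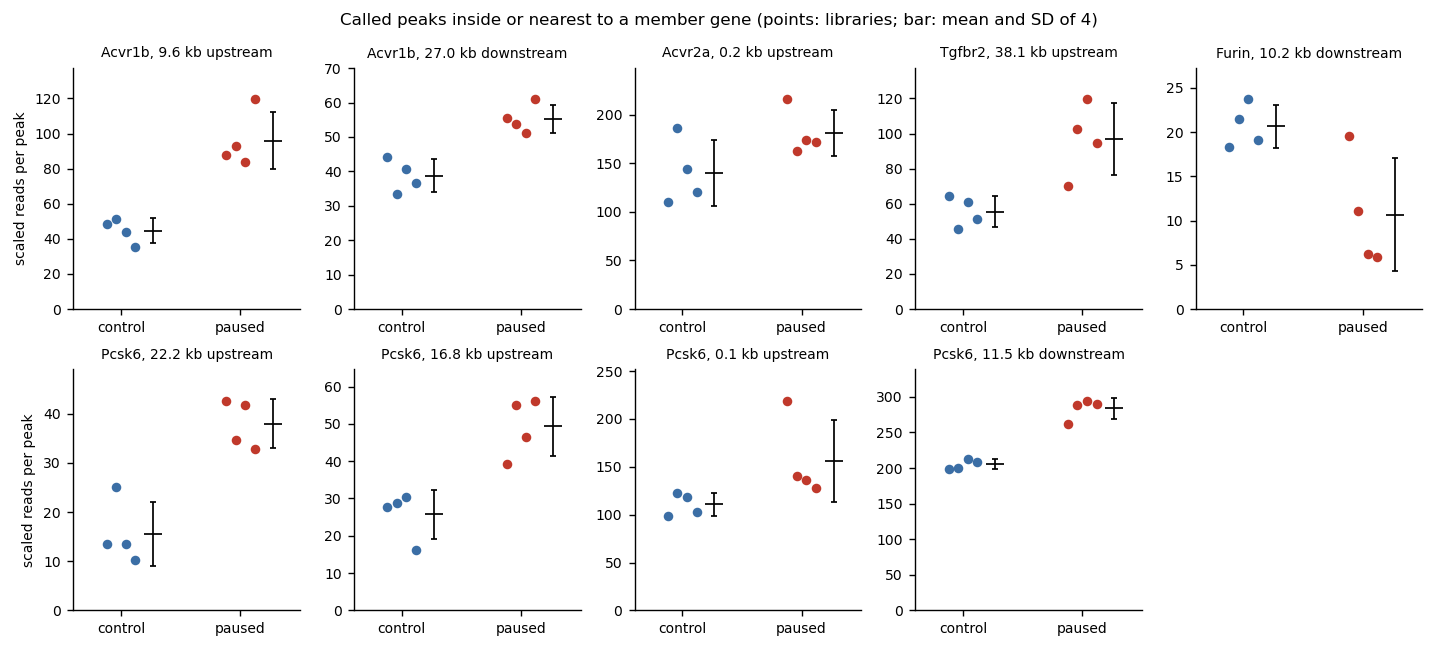
Values (scaled reads per peak, linear axis from 0) of the 9 called own peaks in each library; blue, control; red, paused; bars, mean and SD of 4. The groups do not overlap at 7 of the 9, and overlap at the Acvr2a start site and at the peak inside Furin. The 9 were chosen by their difference, which favours such separation. Over all tested peaks the paused values lay all above the control values at 13.0% and all below them at 4.36%.

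At the Pcsk6 start site (chromosome 7, 65861959 to 65862159) the values were 98.9, 123, 119 and 103 in control and 219, 140, 137 and 128 in paused libraries. The groups did not overlap, but paused replicate 1 stood far above the other paused libraries. The means were 111 ± 11.8 and 156 ± 42.5 (SD, n = 4; log2 change 0.46, SE 0.14, adjusted p = 0.0231), and the call was lost without paused replicate 1, without control replicate 1 or 4, with TMM rescaling, after loess correction on peak strength and in DESeq2.

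The strongest peak of Pcsk6 lies 11510 bp inside the gene (chromosome 7, 65873546 to 65873746) and was the most even. Its values were 199, 200.7, 213 and 209 in control and 262, 289, 295 and 291 in paused libraries, with a clear gap between the groups. The means were 205 ± 6.73 and 284 ± 15.0 (SD, n = 4; log2 change 0.46, SE 0.11, adjusted p = 0.00254), called under 16 of 17 alternatives; after loess correction on peak strength the adjusted p was 0.0738 and the log2 change 0.26.

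The 4 called peaks of Pcsk6 all lay within 60 kb of its start site. Of the 11 tested own peaks within 60 kb of the start site, 10 had a log2 change above 0, with a median of 0.46. Among these 11, 4 were called higher, against 11.0% of all tested peaks. Of the 5 farther into the gene, 3 were above 0, with a median of 0.04, and none was called. The farther peaks were also weaker, with mean values from 11.7 to 47.3 against 19.5 to 244.7, and the division at 60 kb was chosen after the values were seen, so that no test is given.

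Furin, the other convertase, held the only own peak that was called lower. It lies 10155 bp past the start site (chromosome 7, 80392557 to 80392757) and is weak, with 18.3, 21.5, 23.7 and 19.1 in control and 19.6, 11.0, 6.21 and 5.86 in paused libraries. Paused replicate 1 lay within the control range, so that the groups overlapped. The means were 20.7 ± 2.44 and 10.7 ± 6.41 (SD, n = 4; log2 change -1.03, SE 0.33, adjusted p = 0.0299). It rested on 4 to 53 reads per library, and lost its call in 8 of 16 alternatives, among them the fit without control replicate 1, the deepest library, and those without control replicate 2, 3 or 4 or paused replicate 3 or 4. The Furin start site peak (chromosome 7, 80402724 to 80402924) had the widest control spread of the 9 start site peaks, with 117, 246, 137 and 187 in control and 284, 188, 209 and 193 in paused libraries. The groups overlapped, and the log2 change of 0.39 (SE 0.15, adjusted p = 0.0823) did not pass. It was 0.22 without control replicate 1 (adjusted p = 0.353) and 0.58 without control replicate 2 (adjusted p = 0.00501), and edgeR with the deposited factors called it (adjusted p = 0.0353).

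The ligand genes had no called own peak. Inhba encodes the beta A subunit of activin A. Its start site peak (chromosome 13, 16012309 to 16012509) had 175, 166, 185 and 195 in control and 202, 202, 276 and 204 in paused libraries. The groups did not overlap, paused replicate 3 stood apart, and the log2 change was 0.28 (SE 0.12, adjusted p = 0.104). Of the other 5 own peaks, the one of smallest p lies 35426 bp outside the gene, on its 5′ side (chromosome 13, 15968730 to 15968930), with 17.5 ± 3.75 and 28.0 ± 5.63 (SD, n = 4; log2 change 0.64, SE 0.25, adjusted p = 0.0756).

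Gdf3 encodes a ligand related to Nodal that is expressed in pluripotent cells. It had 3 own peaks and none within 1 kb of a gene end, the nearest centre lying 1083 bp from an end. That peak, inside the gene (chromosome 6, 122608904 to 122609104), had 57.0, 81.2, 61.0 and 55.8 in control and 68.1, 75.7, 57.4 and 63.3 in paused libraries, and the groups overlapped fully. The log2 change was 0.06 (SE 0.16, 95% interval -0.26 to 0.38). The peak 7630 bp outside the gene (chromosome 6, 122617617 to 122617817) was at 46.1 ± 6.35 and 52.7 ± 4.86 (SD, n = 4; log2 change 0.19, SE 0.17, adjusted p = 0.474).

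The start site peaks of the 9 genes that had one were compared side by side, with the peak nearest to a start site taken for each gene (for Acvr1c, the inner start). Their mean values ranked between the 76.3rd and the 94.3rd percentile of all peaks, and in 6 of the 10 genes this was also the strongest own peak (7 with the outer start of Acvr1c counted). All 9 had a log2 change above 0 under the authors' scaling and 8 were above the median of all peaks. The median of the 9 was 0.33, against 0.18 for all tested peaks within 1 kb of a start site. Those had a higher median in general than peaks farther away (0.08), and the share of them above 0 was not counted. With the outer Acvr1c start in place of the inner one, 7 were above the median of all peaks and the median of the 9 was 0.28. The sign was not kept at the outer Acvr1c start with TMM rescaling (-0.11) or loess correction (-0.17), at Tgfbr1 with TMM rescaling (-0.09), or at Tgfbr1 (-0.19) and Tgfbr2 (-0.09) after loess correction on peak strength. Only those of Pcsk6 and Acvr2a, 2 of 9, were called, where 11.0% of the 11267 tested peaks within 1 kb of a start site were called higher and 0.666% lower. Of the 63 tested own peaks farther than 1 kb from a start site, 6 were called higher and 1 lower, against 11.0% and 3.12% of all such peaks, and their median log2 change was 0.06, against 0.08. Some libraries were high at several of these peaks. Control replicate 2 was the highest control at 6 of 9 (Acvr1b, Tgfbr1, Acvr2a, Acvr2b, Furin and Pcsk6), paused replicate 1 the highest paused library at 3 (Acvr2a, Furin and Pcsk6) and paused replicate 3 at 4 (Acvr1b, Acvr2b, Tgfbr2 and Inhba). Without control replicate 2 the log2 change was 0.38 at Acvr1b (adjusted p = 0.0568), 0.53 at Acvr2a (adjusted p = 0.00556) and 0.58 at Furin (adjusted p = 0.00501), so that Furin was then called. Without paused replicate 1 it was 0.30 at Acvr2a (adjusted p = 0.170), 0.25 at Furin (adjusted p = 0.312) and 0.29 at Pcsk6 (adjusted p = 0.162), and none of these was called. Without paused replicate 3 it was 0.24 at Acvr2b (adjusted p = 0.204) and 0.17 at Inhba (adjusted p = 0.369).

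**Figure D3:**
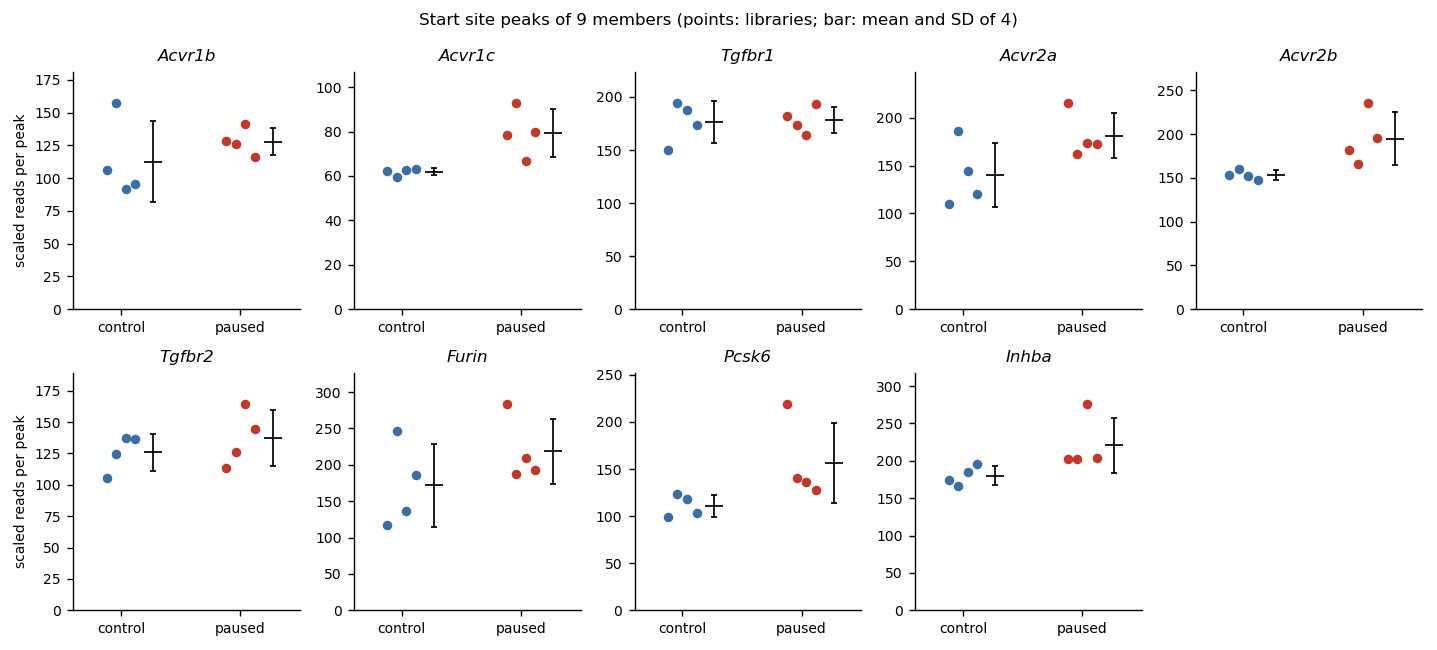
Values (scaled reads per peak, linear axis from 0) of the start site peaks of 9 genes in each library; blue, control; red, paused; bars, mean and SD of 4. The groups do not overlap at Acvr1c (inner start), Acvr2b, Pcsk6 and Inhba, with paused above control, and overlap at the other 5. They also overlap at the outer Acvr1c start, which is not shown. Over all tested peaks 13.0% had all paused values above the control values, and the share among start site peaks was not counted.

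To give 1 value per gene, the values of all own peaks were summed in each library and the sums of all 18118 protein-coding genes with a mean sum of at least 10 were fitted together. Of the 10 genes, 3 had a higher sum in paused cells (Pcsk6, Acvr2a and Acvr1b) and 0 a lower one; over all genes 31.0% were called, 29.6% higher and 1.41% lower. The median log2 change of all gene sums was 0.15. The Pcsk6 sums were 724, 729, 726 and 724 in control and 979, 942, 959 and 937 in paused libraries. The spread within each group was far smaller than the gap between them: the means were 726 ± 2.01 and 954 ± 19.2 (SD, n = 4; log2 change 0.39, SE 0.06, adjusted p = 1.48e-05). The control sums lay closer together than their parts, since the own peaks that were not called had alone a control SD of 20.2. The SD of 2.01 is therefore no measure of the precision of such sums. By p-value Pcsk6 ranked 85th of the 18118 genes, and its log2 change stood at the 92.9th percentile.

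The other sums that passed depended on the scaling. The Acvr2a sum was 175 ± 32.7 in control and 220 ± 22.5 in paused libraries (SD, n = 4; log2 change 0.34, SE 0.12, adjusted p = 0.0256) and that of Acvr1b from 588 ± 14.8 to 677 ± 53.7 (SD, n = 4; log2 change 0.20, SE 0.07, adjusted p = 0.0249). With TMM rescaling, under which the median of all genes was 0.04, only Pcsk6 of the 10 passed (log2 change 0.29, SE 0.05, adjusted p = 0.00106), while Acvr2a had 0.24 (adjusted p = 0.215) and Acvr1b 0.09 (adjusted p = 0.390). Under that scaling 6.96% of all gene sums were called higher. Of the sums that did not pass, those of Acvr2b (0.16, adjusted p = 0.0646), Inhba (0.17, adjusted p = 0.138), Furin (0.17, adjusted p = 0.246) and Acvr1c (0.16, adjusted p = 0.164) were near the median of all genes. The sums of Gdf3 (0.11, adjusted p = 0.482), Tgfbr1 (0.10, adjusted p = 0.354) and Tgfbr2 (0.05, adjusted p = 0.695) were below it, and TMM rescaling turned Tgfbr2 to -0.06.

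**Figure D4:**
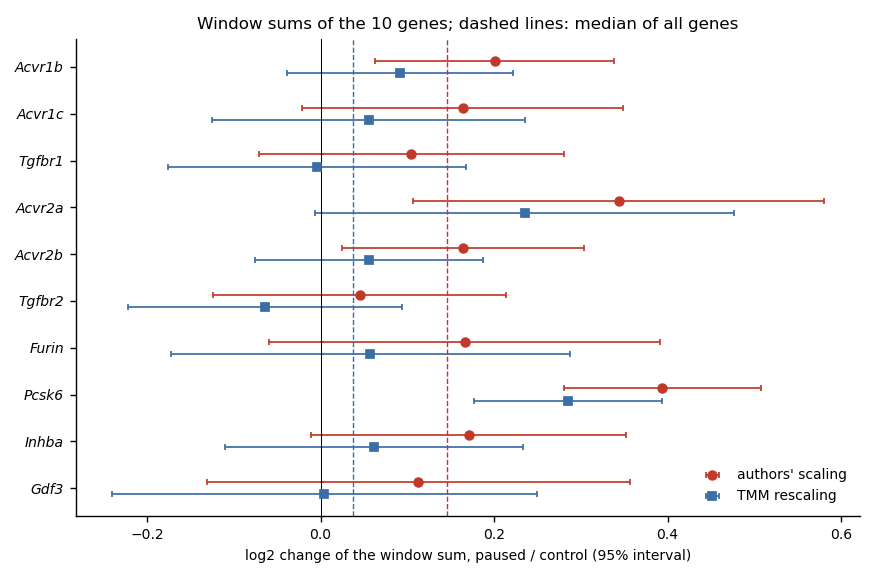
Log2 change (paused over control) of the summed own peaks of each gene, with its 95% interval, for the authors' scaling (red circles) and after TMM rescaling (blue squares); dashed lines, the median of all genes (0.15 and 0.04). The interval of Pcsk6 lies to the right of the median of all genes under both scalings, from 0.28 to 0.51 under the authors' scaling.

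At Acvr1b, Acvr2a and Pcsk6, the genes whose sum was called, the called peaks held most of the difference. At Acvr2a, 1 of the 2 own peaks, the start site peak, held 90.6% of the difference of 45.1. The Acvr2a sum thus largely repeats that call, which was kept under 5 of 17 alternatives. At Acvr1b, the 2 called peaks held 75.9% of the difference of 89.3 between the group means, and the other 8 peaks summed to 504 ± 6.54 in control and 526 ± 40.3 in paused libraries (SD, n = 4). At Pcsk6, the 4 called peaks held 74.3% of the difference of 228, and the other 13 went from 368 ± 20.2 to 427 ± 9.74 (SD, n = 4), with no overlap between the groups. At Tgfbr2, the called peak gained 41.3 while the other 9 peaks together changed by -27.7. The called peaks were chosen by their difference, so that these shares are a description.

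For Pcsk6, the 3 genes whose sums followed it most closely over the 8 libraries were Klk1, Gm10471 and Ly6g6e, with Pearson correlations of 0.994, 0.993 and 0.992. The points share library and depth and fall into the 2 treatment groups, and 1244 genes had a correlation above 0.9.

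In the gene-dense windows the own peaks were a minority: 10 of 33 at Acvr1b, 11 of 32 at Acvr2b, 7 of 22 at Furin and 3 of 23 at Gdf3. Of the peaks nearer to other genes, 85 were tested, and 7 (8.24%) were called higher and 1 (1.18%) lower, against 11.0% and 2.91% of all tested peaks. The called peak in the Gdf3 window lies nearest to Dppa3, a marker of naive pluripotency (chromosome 6, 122624605 to 122624805, 14618 bp from Gdf3), with means of 148 ± 27.1 in control and 221 ± 31.7 in paused libraries (SD, n = 4; log2 change 0.59, SE 0.13, adjusted p = 0.00188). The one in the Acvr2b window lies nearest to the sugar kinase gene Xylb (chromosome 9, 119375629 to 119375829), with 38.8 ± 6.57 and 70.5 ± 21.2 (SD, n = 4; log2 change 0.81, SE 0.19, adjusted p = 0.00299), and its groups overlapped. Both were called under all 17 alternatives.

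Smaller rises were called nearest to Nr4a1 (chromosome 15, 101246362 to 101246562; log2 change 0.34, adjusted p = 0.0287), Man2a2 (chromosome 7, 80370843 to 80371043; 0.41, adjusted p = 0.0211) and Col15a1 (chromosome 4, 47329410 to 47329610; 0.64, adjusted p = 0.0434). These did not pass with TMM rescaling. The peak called lower was nearest to Blm in the Furin window (chromosome 7, 80435663 to 80435863; -0.98, adjusted p = 0.0484), and the remaining 2 called peaks, both higher, were nearest to Acvrl1 and Grasp in the Acvr1b window. The authors' deposited table lists only 1 window peak as lower, nearest to Selenos in the Pcsk6 window (chromosome 7, 66092850 to 66093050, FDR 0.0204). That peak was too weak to be tested here. The same table gives the Blm peak an FDR of 0.103 and the peak called lower inside Furin an FDR of 0.0977.

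The rest of the pathway was described through 39 other genes (ligands, antagonists, coreceptors, Smads and their regulators), of which 37 had an own peak by the same rule. Of their 336 tested peaks 24 (7.14%) were called higher and 8 (2.38%) lower, with a median log2 change of 0.03, against 11.0% and 2.91% of all tested peaks. Their gene sums were called higher for 6 of 37 (16.2%, against 29.6% of all genes) and lower for 0 (1.41% of all genes). The 6 were Smad2 (log2 change 0.37), the shared signal transducer of activin and Nodal; Ski (0.26) and Tgif1 (0.15), repressors of Smad activity; Inhbb (0.28), the beta B subunit of activins; Tgfbr3 (0.17), a TGF-beta coreceptor; and Pcsk5 (0.36), another proprotein convertase. The adjusted p of these was 0.000698, 0.000546, 0.0303, 0.00528, 0.0305 and 0.00398. The median log2 change of all gene sums was 0.15, so that the sums of Tgif1 and Tgfbr3 were near that general shift. The calls of the 6 sums with TMM rescaling, under which 6.96% of all gene sums were called higher, are not given here. Nodal (0.04), Lefty1 (0.07), Lefty2 (0.13) and the coreceptor Tdgf1 (0.14) had no called peak.

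Single peaks of these genes went in both directions. A peak inside Ski (chromosome 4, 155163610 to 155163810) rose from 22.3 ± 3.36 to 49.4 ± 4.19 (SD, n = 4; log2 change 1.12, SE 0.20, adjusted p = 0.000154), and a peak inside the activin antagonist gene Fst (chromosome 13, 114456300 to 114456500) from 77.9 ± 7.17 to 118.7 ± 12.7 (SD, n = 4; log2 change 0.60, SE 0.13, adjusted p = 0.00222). The peak 16561 bp from Inhbb (chromosome 1, 119398802 to 119399002) rose by 0.56 (adjusted p = 0.00126). In contrast, peaks fell inside Ldlrad4 (chromosome 18, 68052378 to 68052578; log2 change -1.29, adjusted p = 0.000441) and Pmepa1 (chromosome 2, 173263619 to 173263819; -0.70, adjusted p = 0.00557), which encode related membrane proteins that restrain Smad activation. Ldlrad4 also had 3 peaks called higher, and its gene sum had a log2 change of 0.01 (adjusted p = 0.884). The sixth named by the same rule was the upstream peak of Smad2 (chromosome 18, 76209662 to 76209862; 1.20, adjusted p = 1.35e-05).

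**Figure D5:**
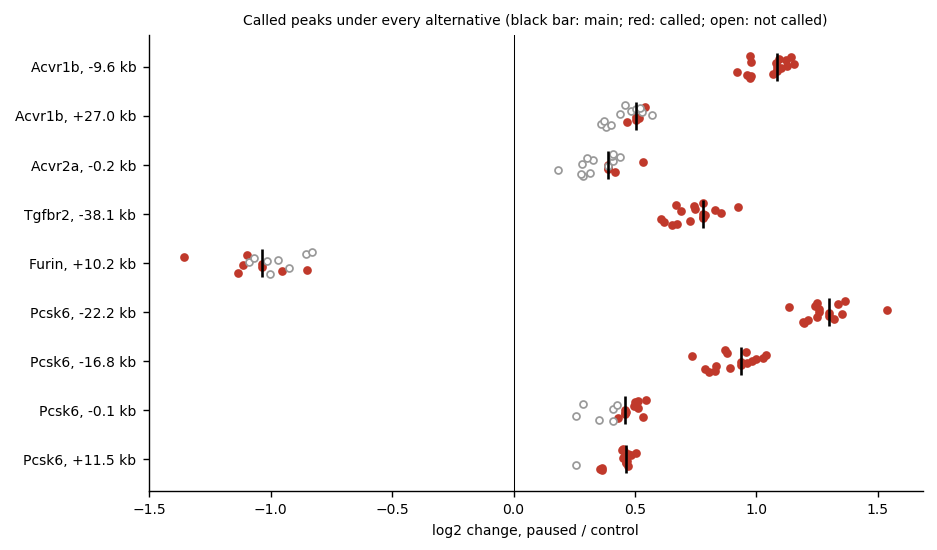
Log2 change (paused over control) of the 9 called own peaks, labelled by gene and distance from the nearest start site, in the main fit (black bar) and under each alternative; red, called; open, not called. The 4 peaks called in every fit that tested them are those 9.6 kb before Acvr1b, 38.1 kb before Tgfbr2 and 22.2 and 16.8 kb before Pcsk6, and none of the 9 changed direction. The share of all peaks called in every fit was not counted.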

How the data were processed

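The genes, gene lists and tests were chosen with earlier results of these data known. The deposited table gives, per the file headers, a signal for each library (reads per peak divided by 1 factor and rounded to 2 decimals, as worked out from the values), the log2 mean concentrations and log2 fold of the authors' own comparison, and its p-values with FDR. Per the submitters' processing notes, Bowtie2 2.4.1, MACS3 3.0.3, DiffBind 3.16.0, Trim Galore, FastQC and the build mm10 were used; the read filter, any Tn5 shift and the scaling are not given in the sources used here. Columns were matched to samples by the library names in the labels, and 0 per-sample columns were left unused. All values (100% in each library) were whole multiples of 1 step to within 0.01, which gave the recovered reads.

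The main test was limma-trend (limma 3.58.1, R 4.3.3) on log2(value + 1), without covariates, leaving out peaks whose mean was under 10; this understates the change of weak peaks. On the recovered reads, edgeR 4.0.16 with TMM called 16142 peaks in all and with the deposited factors 21045, against 17660; DESeq2 1.42.0 was a further alternative. On simulated reads with 200 of 127402 peaks changed, limma-trend called 154 and edgeR 168, with 4 and 10 unchanged peaks called. The simulated log2 changes were 1 or more in size, as many up as down, with no general shift. The simulation therefore cannot show how the tests treat smaller changes, the general shift of these data or the choice of scaling. Genes came from RefSeq GRCm38.p6 (21887 protein-coding genes); exons were not analysed here, non-coding genes were not used as neighbours, and for Gdf3 both ends were used in place of a start site. A count of 0 reads allows up to 3, a value of 1.04 to 5.08; counting errors cover sampling of reads only. No batch is named in the labels.

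Named were, for each gene, the start site peak within 1 kb, the peak of smallest p, the strongest peak, called own peaks with a log2 change of 1 or more and the called peak of smallest p nearer to another gene. For other pathway genes, the 6 called peaks of smallest p (1 per gene) were named.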

Additional observations from a re-analysis of the deposited data

Results flagged for a closer look

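In 76 groups of 4 libraries (named peaks, gene sums and depth), the gap between the most extreme library and its neighbour, as a share of the group's range, was compared with Dixon's critical value; chance passes it in about 1 in 20 groups, and 6 did. At the Pcsk6 start site peak paused replicate 1 was high at 219 (share 0.861), and without it the peak was not called. At the Inhba start site peak paused replicate 3 was high at 276 (0.973), and the same library was high in the Inhba sum at 431 (0.863). At the peak 7630 bp outside Gdf3 paused replicate 2 was high at 59.9 (0.892), and in the Gdf3 sum control replicate 2 was high at 155 (0.902). In reads in peaks, control replicate 1 was high at 21161767 (0.891).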

How the results depend on the processing

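The called counts depended on the scaling, and depth (18 to 29 reads in the median peak of 7 libraries) limits what weak peaks can show; the causes of the changes below were not tested. Of the 158 window peaks, 15 were called higher, but 7 with TMM rescaling, 6 with loess correction, 8 with edgeR and TMM and 7 with DESeq2 (8 to 16 leaving out 1 library). Called lower were 2, but 5 with TMM rescaling, 9 with edgeR and TMM, 5 with edgeR and the deposited factors, 1 with a pseudocount of 0.1, and 0 with DESeq2 or a mean value of at least 50 (0 to 2 leaving out 1 library). Of the own peaks, 8 were called higher, but 5 with TMM rescaling, 4 with loess and 5 with DESeq2 (5 to 8 leaving out 1 library), and 1 lower, but 2 with TMM rescaling, 5 with edgeR and TMM, 3 with edgeR and the deposited factors, and 0 with DESeq2 or a mean value of at least 50 (0 to 1 leaving out 1 library). Of the 10 gene sums, 3 were called higher, but 1 with TMM rescaling and 5 when every peak of the window was summed, where 50.02% of all genes were called higher (1 to 4 leaving out 1 library, the 1 being without control replicate 4), and 0 lower under each of these. Over all peaks, 17660 were called, but 10956 with loess, 5794 with DESeq2, 10910 with a mean value of at least 50 and 11567 without paused replicate 4.

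Changes of sign occurred only in values that were not called. In TMM rescaling, loess, edgeR with TMM and DESeq2, in that order, the strongest Acvr1b peak turned to -0.0488, -0.1435, -0.0318 and -0.0364, the outer Acvr1c start site peak to -0.1064, -0.1736, -0.0777 and -0.0863, the Tgfbr1 start site peak to -0.0888, -0.1859, -0.0563 and -0.0661, and the peak inside Gdf3 to -0.0466, -0.1032, -0.0271 and -0.0433. Leaving out 1 library, these 4 ranged from -0.0292 to 0.1425, from -0.1046 to 0.0833, from -0.0558 to 0.0688 and from -0.006 to 0.1809. The Tgfbr2 start site peak turned to -0.0872 with loess. The Tgfbr1 sum turned to -0.0038 with TMM rescaling, and the Tgfbr2 sum to -0.0636 with TMM rescaling and -0.0466 in a window of 10 kb, with a range of -0.0169 to 0.1046 leaving out 1 library.

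The replicate numbers were not taken as pairs, since the deviations of same-numbered libraries correlated only weakly, by 0.0358 to 0.133 and not all above 0.1; all 4 were positive, and 3 of 4 numbers correlated best with their own, which is a hint from the data and not the design. With the replicate number as a block, 19 window peaks were called higher and 3 lower, 9 and 1 of the own peaks, and 4 and 0 of the gene sums, against 21994 of all peaks; the Acvr2b start site peak (adjusted p = 0.0318) and sum (adjusted p = 0.0371) were the named values whose call it changed. The Acvr2b start site peak and that of Furin were also called in other fits, given beside them.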
